A study of Mus musculus with 6 samples.

Results

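The transcripts described here are messenger RNAs made inside mitochondria from the mitochondrial genome: mt-Nd1, mt-Nd2, mt-Nd3, mt-Nd4, mt-Nd5, mt-Cytb, mt-Co1, mt-Co2, mt-Co3 and mt-Atp6. They were taken by gene symbol, and all 10 were found among the 30905 genes of the deposited tables. They were measured in testis cells of male ICR mice, an outbred stock, by droplet single-cell RNA-seq with 10x Genomics 3′ chemistry, in which a barcode stands for a droplet and a unique molecular identifier (UMI) for each RNA molecule caught in it. Of the 6 libraries, 3 came from mice exposed to cigarette smoke and 3 from mice kept in the chamber without smoke. Per the labels' protocols, smoking mice stayed in the smoke of 15 cigarettes for 30 minutes daily over 12 weeks, after purchase at 6 weeks of age and 1 week of adaptation, whereas the age label reads 8 weeks. The cigarettes were rated at 11 mg tar and 1.1 mg nicotine, the smoke held 3.47 mg/m3 of particles, and each group had 7 mice. The left testis was used and dead cells were depleted. The labels do not tie a library to a mouse or mice, so a p-value here speaks of the spread among these 6 libraries alone, which may be technical.

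Mitochondria keep a small circular genome whose messenger RNAs all code for core subunits of the respiratory chain and of ATP synthase, while the remaining subunits come from nuclear genes. Its strands are transcribed as long precursors that are cut into single mRNAs and given short poly(A) tails. In the testis, Sertoli cells nurse the germ cells, spermatogonia and spermatocytes divide and undergo meiosis, and spermatids then change from round to elongated cells, pack their DNA with transition proteins and protamines, and shed most of their cytoplasm.

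The deposited barcodes held 55751481, 65728120 and 78455606 UMIs in smoking libraries 1 to 3, against 40675108, 39607204 and 54915594 UMIs in control libraries 1 to 3. The groups did not overlap in depth (two-sided exact permutation p = 0.1, the smallest that 3 against 3 libraries allow). After removal of likely doublets, 50318 of 54253 barcodes were kept and fell into 31 clusters, which were made without mitochondrially encoded and ribosomal protein genes. Marker genes named 21 clusters as spermatogonia-like, spermatocyte-like, round-spermatid-like, elongating-spermatid-like or as 6 somatic types, of which Sertoli-, Leydig-, macrophage- and mesenchymal-like cells had at least 20 barcodes in every library. The testis label was borne out by germ cell, Sertoli and Leydig markers, but 50.5% of barcodes stayed unnamed. Cluster 1, unnamed, set smoking library 3 apart: it held 906, 461 and 2051 barcodes in smoking libraries 1 to 3, against 125, 288 and 368 in control libraries 1 to 3.

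The 10 genes lie on chromosome M of mm10 (GENCODE M21) and are all transcribed from the plus strand. The 3′ ends are shown because the assay primes on poly(A) and counts near them. Their last 30 bases are printed 5′ to 3′, with the stop codon, or the part of it that the gene encodes, in capitals.
mt-Nd1: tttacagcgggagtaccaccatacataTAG
mt-Co1: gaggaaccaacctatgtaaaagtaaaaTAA
mt-Co2: ttcgaaaactgatctgcttcaataattTAA
mt-Atp6: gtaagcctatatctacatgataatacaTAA
mt-Co3: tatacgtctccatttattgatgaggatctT
mt-Cytb: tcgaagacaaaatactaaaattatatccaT
mt-Nd4: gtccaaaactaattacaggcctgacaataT
The genes for mt-Co3, mt-Cytb and mt-Nd4 end in a lone T of the stop codon, which the poly(A) tail completes in the RNA. The other 7 members end in a complete TAA or TAG.

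Neighbouring genes limit what a count can tell apart. The mt-Atp6 gene (chrM:7927-8607) overlaps mt-Atp8 (chrM:7766-7969) and meets mt-Co3 at base 8607, and mt-Nd4 (chrM:10167-11544) overlaps mt-Nd4l (chrM:9877-10173). In the mouse mt-Atp8 with mt-Atp6, and mt-Nd4l with mt-Nd4, share an mRNA. Fragments of mitochondrial DNA in the nuclear genome limit it too: for 6 of the 10 genes (mt-Atp6, mt-Co1, mt-Co2, mt-Co3, mt-Nd3 and mt-Nd4) an annotated copy of at least 100 bases matched at 98% identity or more. These 6 copies lie side by side on chromosome 1. Those of mt-Atp6 (Gm10925, 678 bases), mt-Co2 (Gm28661, 681 bases), mt-Co3 (Gm28437, 783 bases) and mt-Nd4 (Gm28439, 876 bases) matched without a difference. The mt-Nd4 copy matched the first 876 of that gene's 1378 bases and so not its 3′ end. None of the 6 is a row of the deposited tables, so reads from them cannot be told apart from those of the members.

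Over all retained barcodes the cytochrome oxidase and ATP synthase transcripts were the most abundant. Levels are given as CPM, a gene's UMIs scaled to the same total in every library. Means over 6 libraries were 6673 CPM for mt-Co3, 5198 for mt-Co2, 5059 for mt-Atp6 and 4256 for mt-Co1, which code for subunits of cytochrome c oxidase (complex IV) and for the proton channel subunit of ATP synthase. mt-Cytb, the complex III member, had 2333 CPM. The complex I (NADH dehydrogenase) transcripts were lower, at 1578 CPM for mt-Nd4, 1466 for mt-Nd1, 1088 for mt-Nd2, 316 for mt-Nd3 and 174 for mt-Nd5. A UMI in 3′ counting stands for a molecule whatever its length. Divided by gene length as well, mt-Co3, mt-Co2, mt-Atp6, mt-Co1 and mt-Cytb kept the first 5 ranks, from 8512 to 2040 CPM per kilobase, and mt-Nd5 was the lowest member at 95.3 CPM per kilobase. The other mitochondrial protein-coding genes had lower counts, with 90.8 CPM for mt-Nd4l, 28.1 for mt-Atp8 and 7.09 for mt-Nd6, the last of these coded on the opposite strand. Since mt-Nd4l and mt-Atp8 share an mRNA with mt-Nd4 and mt-Atp6, their low counts do not give the amount of that mRNA. Mitochondrial ribosomal and transfer RNA genes are not rows of the tables.

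The summed UMIs of the 10 genes took very different shares of the RNA in different cells. Sertoli-like barcodes were highest, at 10.3% ± 1.07 of UMIs (SD over 6 libraries, range 8.70% to 11.6%). Spermatogonia-like barcodes had 7.18% ± 0.620, Leydig-like barcodes 6.58% ± 1.37 and spermatocyte-like barcodes 5.93% ± 0.661. Macrophage-like barcodes had 3.91% ± 0.295 and mesenchymal-like barcodes 2.81% ± 0.410. Round-spermatid-like barcodes had 0.808% ± 0.197 and elongating-spermatid-like barcodes 0.134% ± 0.0502. The ranges of both spermatid classes lay below those of all other classes and did not overlap each other, whereas spermatogonia-, Leydig- and spermatocyte-like barcodes overlapped in range.

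**Figure D1:**
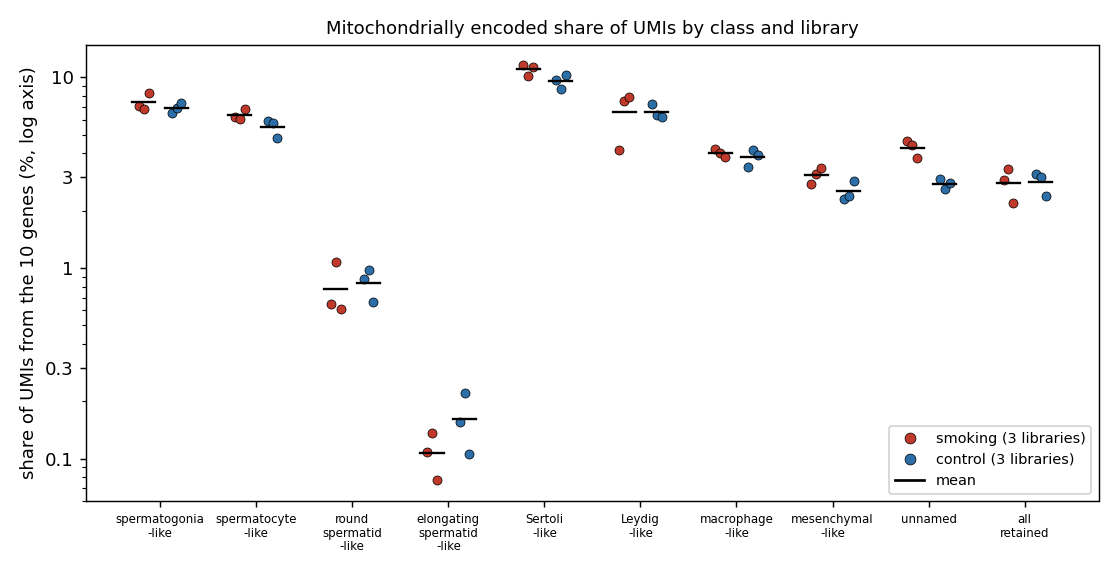
Share of UMIs from the 10 mitochondrially encoded genes (percent, log axis) in each class and library, with smoking libraries in red to the left of control libraries in blue and black lines for means of 3. Round-spermatid-like barcodes (0.808% on average) and elongating-spermatid-like barcodes (0.134%) lie far below the other classes in all 6 libraries.

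Along the germ cell classes the share fell at each step in all 6 libraries. Spermatocyte-like over spermatogonia-like barcodes gave a mean log2 ratio of -0.28 ± 0.17 (SD, 6 libraries). Round-spermatid-like over spermatocyte-like barcodes gave -2.91 ± 0.40, which is 7.49-fold lower. Elongating- over round-spermatid-like barcodes gave -2.64 ± 0.31, which is 6.23-fold lower. Each step reached the smallest value a two-sided exact sign-flip permutation test can give with 6 libraries (p = 0.03125, adjusted over the 3 steps p = 0.03125). The sizes depended on which barcodes were counted. By the median barcode instead of summed UMIs the first step was -2.38. Once barcodes over 20% mitochondrial UMIs were left out, the first step was -0.94 and the second -2.25. Among barcodes with at least 6000 UMIs the first step was -0.29 with 5 of 6 libraries below 0 (exact permutation p = 0.0625), and the second was -3.85, which is 14.4-fold lower.

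Large barcodes were also compared by the number of member UMIs they held. Germ cell clusters were taken with their barcodes of at least 6000 UMIs, and these clusters were chosen after their values were seen. Spermatogonia-like cluster 18 had a median of 11829 UMIs per barcode, of which 758 came from the 10 genes. Spermatocyte-like cluster 23 had 44206 UMIs, of which 1470 were from the 10 genes. In round-spermatid-like cluster 19 the median total was still 33611 UMIs, but only 19 came from the 10 genes. Between clusters 23 and 19 the number of member UMIs per barcode was thus lower as well as their share.

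Clusters of later spermatids had fewer member UMIs again. Unnamed cluster 21, which had 3 markers each of round and elongating spermatids and 15.65% of UMIs from Prm1, Prm2, Tnp1 and Tnp2 (the protamine and transition protein genes), had a median of 10 member UMIs in 31382. Elongating-spermatid-like clusters 17 and 9 had a median of 7 member UMIs each, in 23360.5 and 22672.5 UMIs. By library, the member share in these barcodes of cluster 19 ranged from 0.0875% to 0.218%, that of cluster 17 from 0.0413% to 0.0932% and that of cluster 9 from 0.0621% to 0.217%. Cluster 9 overlapped cluster 19, since it had 0.217% in control library 2 and at most 0.0809% in the other 5 libraries. When barcodes of at least 6000 UMIs of the spermatid classes and cluster 21 were ordered by their protamine and transition protein share, members took 0.194% of UMIs where that share was under 1%. They took 0.510% at 1% to under 5%, 0.293% at 5% to under 10% and 0.0809% at 10% to under 20%. They then took 0.0724% at 20% to under 30% and 0.0671% at 30% and more. The value at 5% to under 10% rested on smoking library 2, with 1.58%, while the other 5 libraries had 0.0673% to 0.167%. The order was thus not a steady decline. The share in the median barcode stayed between 0.0276% and 0.0777% in all 6 ranges, well below the summed share at 1% to under 10%.

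**Figure D2:**
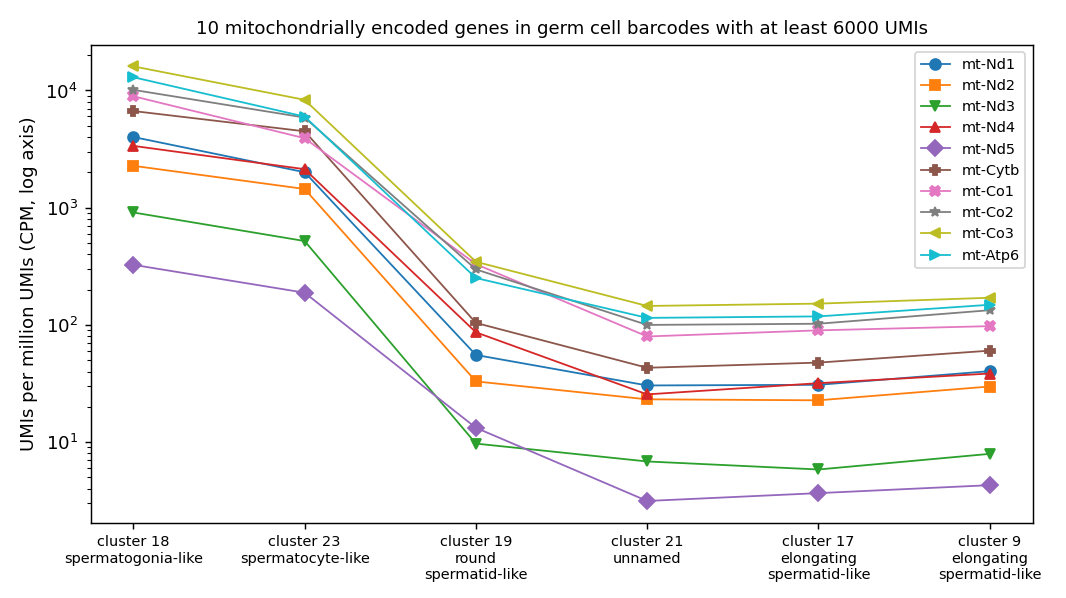
Level of each of the 10 genes (CPM, log axis) in the germ cell clusters, summed over barcodes with at least 6000 UMIs of all 6 libraries, in the order of the classes. All 10 lines fall steeply between spermatocyte-like cluster 23 and round-spermatid-like cluster 19, mt-Co3 to 346 CPM in cluster 19 against 8326 CPM in cluster 23.

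Free RNA bounds how low a level can be read. Protamine and transition protein UMIs, which macrophages should lack, made up 4.37% of the UMIs of macrophage-like barcodes (range 3.79% to 4.87% over libraries), against 28.6% in elongating-spermatid-like barcodes, with median totals of 4898 and 16954.5 UMIs. For the 10 genes, the lowest counts in small barcodes were a median of 2 member UMIs in cluster 1 and of 3 in clusters 7 and 11. The median totals there were 2542, 2726 and 2549 UMIs. The 6 or 7 member UMIs of an elongating-spermatid-like barcode stand close to those counts. Whether they came from the cell or from free RNA was not tested.

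All 10 genes were lower in spermatids. In round-spermatid-like barcodes the mean levels were 1828 CPM for mt-Co1, 1783 for mt-Co3, 1618 for mt-Co2 and 1342 for mt-Atp6, against 8058, 14300, 11108 and 10803 CPM in spermatocyte-like barcodes. The complex III and complex I members were at 507 CPM for mt-Cytb, 458 for mt-Nd4, 244 for mt-Nd1, 167 for mt-Nd2, 76.9 for mt-Nd5 and 51.9 for mt-Nd3, against 5604, 3454, 2812, 2138, 321 and 723 CPM. In elongating-spermatid-like barcodes the range was 316 CPM for mt-Co3 to 7.99 CPM for mt-Nd5. Over 48 sums of class and library the log2 levels of any 2 members correlated at a Pearson r of at least 0.949, a description of sums that share libraries and a denominator.

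The genes were not lower in equal measure, and the make-up of the mitochondrial mRNA pool differed between cell classes. mt-Co1 made up 22.8% ± 0.912 of the 10 genes' UMIs in round-spermatid-like barcodes (range 21.2% to 23.4%), against 13.6% ± 0.838 in spermatocyte-like barcodes, and was higher in 6 of 6 libraries. mt-Nd1 made up 3.05% in round-spermatid-like and 4.74% in spermatocyte-like barcodes, mt-Cytb 6.30% and 9.47%, and mt-Nd2 2.08% and 3.62%, each lower in 6 of 6. The low-abundance mt-Nd5 went the other way, at 0.958% in round-spermatid-like and 0.541% in spermatocyte-like barcodes. Elongating-spermatid-like barcodes had 13.4% mt-Co1 and 5.44% mt-Nd1, lower and higher than round-spermatid-like barcodes in 6 of 6 libraries. Over all retained barcodes the shares were 15.2% for mt-Co1 and 5.20% for mt-Nd1.

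The mt-Co1-rich make-up was not limited to small barcodes. In round-spermatid-like cluster 19, counting barcodes with at least 6000 UMIs, mt-Co1 made up 21.6% and mt-Cytb 6.82% of the 10 genes' UMIs, against 11.2% and 12.9% in spermatocyte-like cluster 23. Unnamed cluster 5, led by Speer4 family genes, had 21.4% mt-Co1 and 2.89% mt-Nd1 at a median of 2815 UMIs. Clusters 14 and 22, which were rich in member RNA, had 12.6% and 12.5% mt-Co1.

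Sertoli- and Leydig-like barcodes differed from germ cells and from each other. mt-Nd1 made up 8.21% ± 0.360 of the 10 genes' UMIs in Sertoli-like barcodes, higher than in spermatocyte-like barcodes in 6 of 6 libraries, and mt-Nd2 5.78% against 3.62%. Leydig-like barcodes, the steroid-producing cells, had more mt-Co1 (18.6% against 13.3%) and mt-Nd5 (1.23% against 0.542%) than Sertoli-like barcodes and less mt-Co3 (19.9% against 24.0%), each in 6 of 6 libraries. Sertoli-like cluster 30 at 6000 or more UMIs gave 9.42% mt-Nd1, and Leydig-like cluster 28 gave 18.9% mt-Co1 and 1.23% mt-Nd5. No p-value is attached to these shares.

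**Figure D3:**
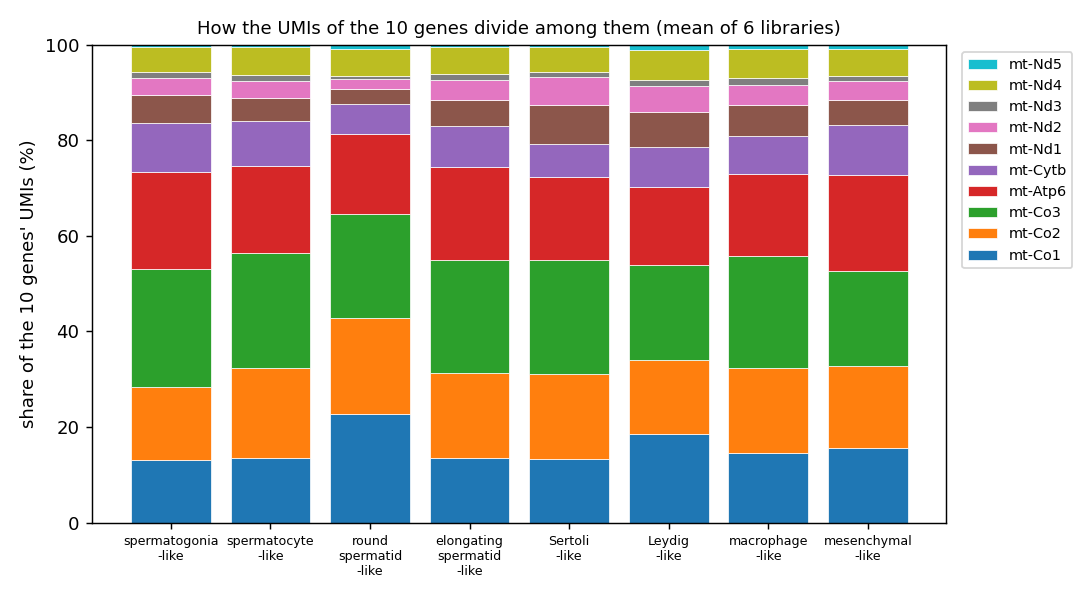
Share of each gene in the UMIs of the 10 genes (percent, stacked to 100) in 8 classes, as the mean of 6 libraries. The mt-Co1 segment is tallest in round-spermatid-like barcodes (22.8%) and the mt-Nd1 segment is tallest in Sertoli-like barcodes (8.21%).

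The share also depended on barcode size, and not in a straight line. It was 3.80% in barcodes under 2000 UMIs (present in only 3 libraries), 3.45% at 2000 to under 3000, 5.83% at 3000 to under 6000, 6.98% at 6000 to under 12000 and 1.06% at 12000 and more. The spermatid classes with cluster 21 supplied 81.2% of the UMIs in the largest range, against 14.6% at 2000 to under 3000. The ratio of barcodes with at least 6000 UMIs over those under 3000 was below 0 on the log2 scale in 6 of 6 libraries, with a mean of -0.96 ± 0.63 and a two-sided exact permutation p = 0.03125, the smallest possible. Because UMIs per barcode include the members, the 2 axes are not independent.

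**Figure D4:**
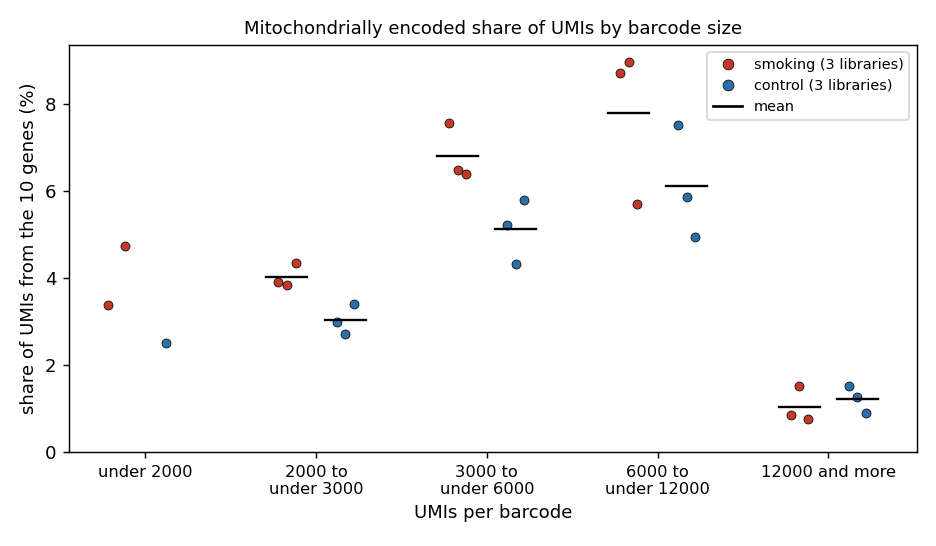
Share of UMIs from the 10 genes (percent) by UMIs per barcode, with each point a library, smoking in red left of control in blue, and black lines for means of 3. The share is near 1% at 12000 UMIs and more, where spermatids dominate, and the groups do not overlap at 2000 to under 3000 or at 3000 to under 6000 UMIs.

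Barcodes of a library differed widely. Under 1% of UMIs came from the 10 genes in 54.9% to 63.8% of a library's barcodes, and over 10% in 10.9% to 17.1%. The extremes stood side by side within a class. Among spermatocyte-like clusters, small-barcode cluster 22 had 30.5% of UMIs from the 10 genes at a median of 5376 UMIs, cluster 8 had 9.17% at 2707 and cluster 4 had 2.40% at 2830, against 3.54% in the large-barcode cluster 23. Among round-spermatid-like clusters, cluster 3 had 3.67% and clusters 6, 15 and 19 had 0.363%, 0.353% and 0.154%.

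Between clusters, nuclear RNA did not track this split in a simple way. The nuclear RNAs (Malat1, Neat1, Kcnq1ot1, Meg3 and Snhg11 summed) made up 0.0160% of UMIs in Sertoli-like cluster 16, which had 13.6% from the 10 genes, and 0.438% in Sertoli-like cluster 30, which had 13.7%. Unnamed cluster 14 had 21.3% from the 10 genes with 0.0251% nuclear RNA. Leydig-like cluster 28 had 7.15% with 3.35%. In spermatogonia-like barcodes, those with under 1% of UMIs from the 10 genes had a median of 2407.5 UMIs and 9.40% protamine and transition protein UMIs, against 6751 UMIs and 2.52% in those with 5% and more. Nuclear RNA made up 0.0410% in the former and 0.229% in the latter. In every other of the 8 classes it was likewise higher at 5% and more, as in Sertoli-like barcodes (0.069% against 0.028%). Spermatocyte-like barcodes had 0.160% against 0.129%, with 0.0721% in the range between. Unnamed barcodes went the other way, at 0.0673% against 0.0720%. The part of cell damage or free RNA in these differences was not tested.

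Whether smoke exposure altered mitochondrial transcripts was asked first over whole libraries. The 10 genes took 2.89%, 3.31% and 2.20% of UMIs in smoking libraries, against 3.12%, 2.99% and 2.38% in control libraries. The means of 2.80% ± 0.562 and 2.83% ± 0.394 (SD, n = 3 each) differed by less than the spread between libraries (two-sided exact permutation p = 1). Behind the equal sums, the smoking libraries held more barcodes rich in mitochondrial mRNA: 15.7%, 16.6% and 17.1% of smoking barcodes had over 10% of UMIs from the 10 genes, against 11.6%, 10.9% and 12.8% of control barcodes, without overlap (exact permutation p = 0.1). Elongating-spermatid-like barcodes, which are poor in it, made up 8.47%, 8.94% and 15.5% of smoking barcodes, against 4.46%, 4.11% and 9.14% of control barcodes, with overlap (exact permutation p = 0.3).

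By class, the share differed without overlap between the groups in spermatocyte-like barcodes only, of 8 classes compared. It was 6.18%, 6.05% and 6.85% in smoking libraries, against 5.94%, 5.76% and 4.82% in control libraries. The means were 6.36% ± 0.427 in smoking and 5.50% ± 0.601 in control libraries (n = 3 each, exact permutation p = 0.1, adjusted over 8 classes p = 0.533). This difference of 0.856 percentage points was 0.00240 once barcodes over 20% mitochondrial UMIs were left out, and 0.749 among barcodes with at least 6000 UMIs (exact permutation p = 0.5). In spermatocyte-like cluster 23 the groups overlapped, at 3.57% ± 0.173 in smoking and 3.52% ± 0.262 in control libraries. The summed nuclear RNAs moved the other way, at 0.0868% ± 0.00495 of spermatocyte-like UMIs in smoking and 0.128% ± 0.00815 in control libraries, without overlap. Their part in the result was not tested. Nuclear RNA was likewise lower without overlap in both spermatid classes and in Sertoli-like barcodes, where the members' shares overlapped.

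The other classes overlapped. Spermatogonia-like barcodes had 7.41% ± 0.790 in smoking and 6.95% ± 0.423 in control libraries, and Sertoli-like barcodes 11.1% ± 0.735 and 9.57% ± 0.809. Round-spermatid-like barcodes had 0.776% ± 0.259 in smoking and 0.839% ± 0.165 in control libraries. Elongating-spermatid-like barcodes had 0.108%, 0.136% and 0.0770% in smoking libraries, against 0.156%, 0.220% and 0.106% in control libraries (exact permutation p = 0.3). There the median barcode was larger in smoking libraries, at 20267.5, 20319 and 17768.5 UMIs, against 5467, 5243 and 16884 UMIs in control libraries, and its part in the difference was not tested. At matched protamine and transition protein shares, among barcodes of at least 6000 UMIs, the groups overlapped in all 6 ranges and the means differed in both directions. At 10% to under 20% the share was 0.0900% ± 0.0246 in smoking and 0.0714% ± 0.0152 in control libraries, at 20% to under 30% it was 0.0721% ± 0.00362 and 0.0838% ± 0.0275, and at 30% and more 0.0613% ± 0.00831 and 0.108% ± 0.0752. At under 1% it was 0.187% ± 0.0790 in smoking and 0.234% ± 0.0387 in control libraries, and at 1% to under 5% 0.643% ± 0.341 and 0.454% ± 0.236.

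Unnamed barcodes had 4.63%, 4.44% and 3.78% of UMIs from the 10 genes in smoking libraries, against 2.93%, 2.59% and 2.80% in control libraries, without overlap (exact permutation p = 0.1). Of 26 clusters with at least 20 barcodes in every library, 19 had a higher mean share in smoking libraries and 7 a lower one. The groups did not overlap in 10 of the 26, with 8 higher and 2 lower in smoking libraries. Unnamed cluster 14 had 24.9% ± 2.11 in smoking and 17.1% ± 0.896 in control libraries, and unnamed cluster 5 had 14.0% ± 0.703 and 9.67% ± 0.443. Spermatocyte-like cluster 8 had 11.4% ± 1.70 in smoking and 7.25% ± 0.506 in control libraries, and Sertoli-like cluster 16 had 14.3% ± 0.930 and 12.4% ± 0.715. Unnamed cluster 0 had 6.61% ± 2.86 in smoking and 2.40% ± 0.86 in control libraries, and spermatocyte-like cluster 22 had 33.1% ± 3.41 and 27.2% ± 2.36. Round-spermatid-like clusters went in both directions. Cluster 3 was higher without overlap, at 4.45% ± 0.804 in smoking and 2.92% ± 0.166 in control libraries. Lower without overlap were round-spermatid-like clusters 6 (0.319% ± 0.0305 in smoking, 0.398% ± 0.0204 in control) and 15 (0.294% ± 0.0228 and 0.481% ± 0.0894). Unnamed cluster 12, also low in share, was higher without overlap, at 1.20% ± 0.618 in smoking and 0.554% ± 0.183 in control libraries. Every such cluster comparison has an exact permutation p of at least 0.1, and clusters of the same libraries are not independent.

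**Figure D5:**
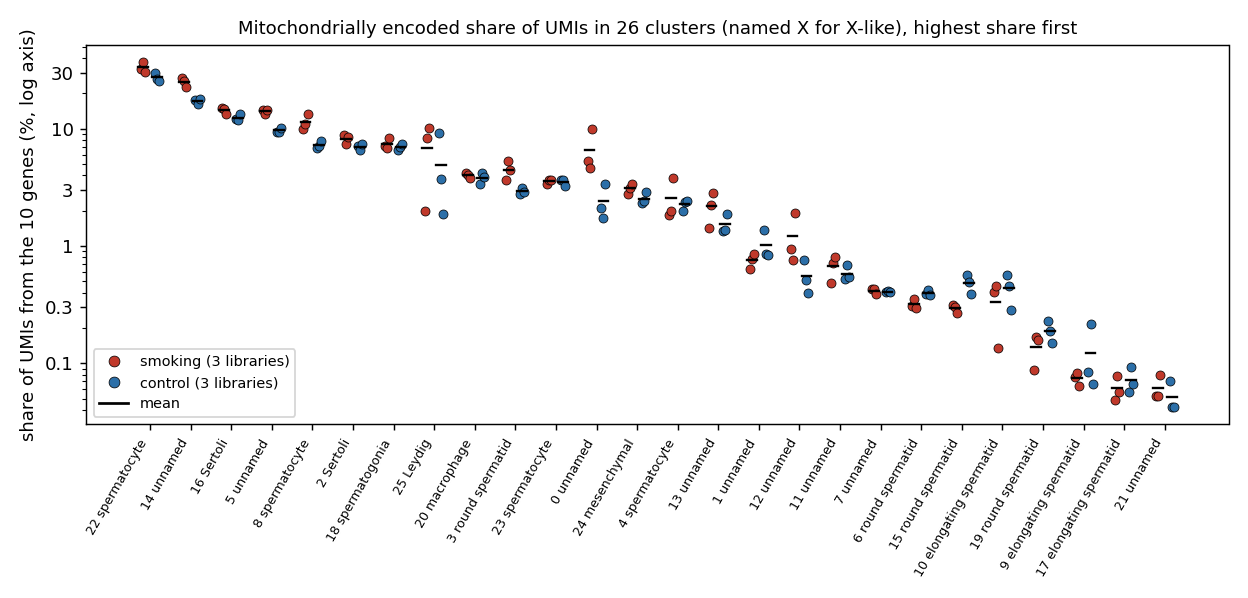
Share of UMIs from the 10 genes (percent, log axis) in the 26 clusters with at least 20 barcodes in every library, ordered from the highest overall share, with smoking libraries in red left of control libraries in blue and black lines for means of 3. Cluster means are higher in smoking libraries in 19 of the 26 clusters, such as 24.9% against 17.1% in cluster 14, and lower in 7.

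Barcode size gave the same picture. At 2000 to under 3000 UMIs the share was 4.03% ± 0.279 in smoking and 3.04% ± 0.355 in control libraries, and at 3000 to under 6000 UMIs 6.82% ± 0.654 and 5.12% ± 0.742, both without overlap (exact permutation p = 0.1). At 12000 UMIs and more the groups overlapped, at 1.04% ± 0.411 in smoking and 1.23% ± 0.324 in control libraries. The median barcode did not follow: it differed by -0.10 percentage points at 2000 to under 3000 UMIs and by -0.017 at 3000 to under 6000, smoking minus control. Without barcodes over 20% mitochondrial UMIs the differences of the summed shares were 0.240 and 0.302 percentage points (exact permutation p = 0.3 each).

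Tested gene by gene with edgeR's quasi-likelihood test on counts summed per class and library, no member passed an adjusted p of 0.05 in any of 8 classes or in all cells. The background was low as well: 0% of 10242 genes passed in spermatogonia-like, 0.00826% of 12113 in spermatocyte-like, 0% of 14081 in round-spermatid-like, 0.101% of 10872 in elongating-spermatid-like (0.0368% higher, 0.0644% lower) and 0% of 11008 in Sertoli-like barcodes. It was 0% of 6061 in Leydig-like, 0.222% of 4508 in macrophage-like (0.2% higher, 0.0222% lower) and 0.0548% of 3649 in mesenchymal-like barcodes, and 0% of 18941 in all cells. DESeq2 and limma-voom also called no member in any of these. At an unadjusted p under 0.05, edgeR had 5 members in Sertoli-like, 4 in spermatocyte-like, 3 in elongating-spermatid-like, 1 each in spermatogonia-, round-spermatid- and mesenchymal-like barcodes and 0 in the others. Over all genes tested the same threshold held 385 of 11008 genes in Sertoli-like, 1982 of 12113 in spermatocyte-like, 2289 of 10872 in elongating-spermatid-like, 674 of 10242 in spermatogonia-like, 1928 of 14081 in round-spermatid-like and 179 of 3649 in mesenchymal-like barcodes.

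In spermatocyte-like barcodes 9 of 10 members had positive log2 folds, with a median of 0.19 against -0.01 over all genes tested, and the cytochrome oxidase genes led. mt-Co2 had 11708, 11651 and 12981 CPM in smoking libraries, against 10509, 10804 and 8996 CPM in control libraries, without overlap. Its log2 fold was 0.30 ± 0.10 (SE, edgeR adjusted p = 0.209). mt-Co3 had 14832, 15621 and 16298 CPM in smoking libraries, against 13859, 13926 and 11266 CPM in control libraries, with a log2 fold of 0.29 ± 0.10 (edgeR adjusted p = 0.217). mt-Co1 had 8378, 7837 and 10110 CPM in smoking libraries, against 7342, 8101 and 6582 CPM in control libraries, and the groups overlapped. mt-Nd2 was level, with a log2 fold of -0.003 ± 0.12. With no filter on low counts mt-Co1, mt-Co2 and mt-Co3 passed (edgeR adjusted p of 0.0065, 0.0048 and 0.0048), but so did 3.50% of 22109 genes. The members' median was 0.09 to 0.27 with a library left out, and without barcodes over 20% mitochondrial UMIs it was 0.02 with 6 of 10 positive.

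Sertoli-like barcodes had all 10 members positive, with a median log2 fold of 0.24 against -0.01 over all genes. mt-Co3 had 28313, 26652 and 26439 CPM in smoking libraries, against 22264, 20472 and 24289 CPM in control libraries, and mt-Atp6 had 20886, 17687 and 19692 CPM, against 16558, 14312 and 17294 CPM. Neither overlapped, with log2 folds of 0.32 ± 0.10 and 0.32 ± 0.11 (edgeR adjusted p = 0.9998 each). Without barcodes over 20% mitochondrial UMIs the Sertoli-like median was 0.06 with 7 of 10 positive. Spermatogonia-like and mesenchymal-like barcodes had 10 of 10 members positive, with medians of 0.13 and 0.28, Leydig-like barcodes 5 of 10 and macrophage-like barcodes 7 of 10. Without smoking library 3 the spermatogonia-like median was 0.03 with 6 of 10 positive, and without control library 1 it was 0.06 with 7 of 10. With doublet scores ignored the mesenchymal-like direction turned, with 2 of 10 positive and a median of -0.12.

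Spermatids had mostly negative folds. In elongating-spermatid-like barcodes all 10 members were negative, with a median log2 fold of -0.36 against -0.04 over all genes. mt-Nd2 had 47.8, 52.7 and 28.6 CPM in smoking libraries, against 76.4, 93.3 and 50.7 CPM in control libraries. Smoking library 2 lay above control library 3, and the log2 fold was -0.52 ± 0.20 (SE, edgeR adjusted p = 0.176). mt-Co1 had 130, 169 and 113 CPM in smoking libraries, against 216, 329 and 134 CPM in control libraries, with a log2 fold of -0.46 ± 0.20 (edgeR adjusted p = 0.213). The median depended on the barcodes and libraries counted: -0.61 with at least 6000 UMIs, -0.51 without barcodes over 20% mitochondrial UMIs and -0.16 with doublet scores ignored. It was -0.15 without smoking library 3 and -0.10 without control library 2 (9 of 10 negative in each), and -0.55 without smoking library 2. Without control library 3 it was -0.56 and mt-Co1 passed (edgeR adjusted p = 0.0249), 1 of 10 members where 18.75% of 11432 genes passed. Round-spermatid-like barcodes had 8 of 10 members negative, with a median of -0.17 against -0.03 over all genes, but 9 of 10 positive and a median of 0.17 when only barcodes with at least 6000 UMIs were counted. With a library left out the round-spermatid-like median was -0.39 (without smoking library 2) to -0.04 (without smoking library 3).

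In all cells pooled 10 of 10 members had positive edgeR folds (median 0.14 with TMM scaling), but 0 of 10 did without barcodes over 20% mitochondrial UMIs (median -0.15), and the plain share of UMIs was level, so no direction is given. limma was used to ask whether smoking and control libraries differed by unequal amounts in successive germ cell classes, from the log2 difference between 2 classes in each library. For round-spermatid-like over spermatocyte-like barcodes all 10 members were negative, with a median of -0.39 against -0.01 over all genes, and none passed (lowest limma adjusted p = 0.132), beside 0% of 11291 genes. At an unadjusted p under 0.05 there were 4 of 10 members and 2115 of 11291 genes. With a library left out the median was -0.61 to -0.18. Among barcodes with at least 6000 UMIs the median was -0.03 with 7 of 10 negative. For elongating- over round-spermatid-like barcodes all 10 were negative (median -0.18) beside 0.00939% of 10653 genes, and none passed. That median was -0.33 to -0.07 with a library left out, and -0.02 with doublet scores ignored. For spermatocyte- over spermatogonia-like barcodes 8 of 10 were positive (median 0.07), none passed, and the background was 0.0432% of 9263 genes (0.0216% higher, 0.0216% lower). That direction turned without barcodes over 20% mitochondrial UMIs, where 0 of 10 were positive (median -0.14), and without control library 3, where 2 of 10 were (median -0.08). Without control library 3, mt-Nd1, mt-Nd2 and mt-Cytb passed for round-spermatid-like over spermatocyte-like barcodes (limma adjusted p of 0.00631, 0.0224 and 0.0465), 3 of 10 members where 18.02% of 11604 genes passed. For elongating- over round-spermatid-like barcodes mt-Co1 passed (limma adjusted p = 0.0414), 1 of 10 members where 15.99% of 11194 genes passed.

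The make-up of the mitochondrial pool was compared between the groups as well. mt-Nd5 made up 0.571%, 0.605% and 0.593% of the 10 genes' UMIs in smoking libraries, against 0.657%, 0.630% and 0.647% in control libraries, over all retained barcodes. The groups did not overlap (exact permutation p = 0.1). mt-Nd5 was the only member of 10 for which that held over all barcodes, the number expected at that p without a group difference. In round-spermatid-like barcodes its share was 0.880% ± 0.0534 in smoking and 1.04% ± 0.0942 in control libraries, in macrophage-like barcodes 0.758% ± 0.0671 and 0.923% ± 0.0364, and in spermatocyte-like barcodes 0.525% ± 0.0163 and 0.558% ± 0.0171, each without overlap. In the other 5 classes the groups overlapped. mt-Nd5 is the least abundant member and was singled out after its values were seen. mt-Nd2 overlapped over all barcodes but was without overlap in the same classes as mt-Nd5. It made up 1.86% ± 0.207 in smoking and 2.30% ± 0.226 in control round-spermatid-like barcodes, and was also lower in spermatocyte- and macrophage-like barcodes. mt-Nd4 and mt-Co2 overlapped over all barcodes but were without overlap in 4 classes each. In round-spermatid-like barcodes mt-Nd4 made up 5.36% ± 0.154 in smoking and 5.98% ± 0.197 in control libraries, and it was also lower in spermatogonia-, spermatocyte- and elongating-spermatid-like barcodes. mt-Co2 made up 20.5% ± 0.412 in smoking and 19.5% ± 0.0829 in control round-spermatid-like barcodes, and it was also higher in spermatogonia-, spermatocyte- and macrophage-like barcodes. Across 8 classes and 10 genes these comparisons were not adjusted, and none can go below an exact permutation p of 0.1. Without overlap were 5 of 10 members in round-spermatid-like, 4 in spermatocyte-like and 3 each in spermatogonia- and macrophage-like barcodes. In Sertoli- and elongating-spermatid-like barcodes there were 2 each, and in Leydig- and mesenchymal-like barcodes 1 each. Without a group difference 1 of 10 members would be expected in a class, at an exact permutation p of 0.1. The classes come from the same libraries, so their counts are not independent. The shares of a class add up to the whole, so the genes are not independent.

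Nuclear genes that work with these transcripts did not pass either. Of 34 genes for transcribing or replicating mitochondrial DNA or processing its RNA, 33 were tested in spermatocyte-like and 20 in elongating-spermatid-like barcodes, and none passed in any class. Tfam, which packages mitochondrial DNA and starts its transcription, had 98.9 ± 19.6 CPM in smoking and 151 ± 35.4 CPM in control libraries in spermatocyte-like barcodes (log2 fold -0.57 ± 0.17, edgeR adjusted p = 0.209). It had 127 ± 39.0 and 191 ± 36.3 CPM in round-spermatid-like barcodes (adjusted p = 0.342 in edgeR) and 1046 ± 44.2 and 1066 ± 73.4 CPM in elongating-spermatid-like barcodes. Polrmt, the mitochondrial RNA polymerase, had 13.1 ± 2.78 CPM in smoking and 13.9 ± 1.73 CPM in control spermatocyte-like barcodes, and Lrpprc, which stabilises mitochondrial mRNAs, had 20.8 ± 1.15 and 24.1 ± 2.48 CPM. In elongating-spermatid-like barcodes of smoking and control libraries Polrmt had 0.855 and 0.967 CPM and Lrpprc 1.55 and 2.50 CPM. Of 89 nuclear genes of the respiratory chain and ATP synthase, 78 of 84 tested had positive folds in spermatocyte-like barcodes (median 0.12) and 57 of 84 had negative folds in elongating-spermatid-like barcodes (median -0.16). In round-spermatid-like barcodes, where 8 of 10 members were negative, 63 of 86 had positive folds (median 0.10), and in spermatogonia-like barcodes 43 of 85 (median 0.01). Positive folds were found for 70 of 86 in Sertoli-like, 27 of 84 in Leydig-like, 53 of 80 in macrophage-like and 48 of 77 in mesenchymal-like barcodes. None of the 89 passed in any class. Over all genes tested, 48.7% had positive folds in spermatocyte-like, 45.7% in elongating-spermatid-like, 46.4% in round-spermatid-like and 49.8% in spermatogonia-like barcodes. The same share was 48.8% in Sertoli-like, 53.1% in Leydig-like, 50.8% in macrophage-like and 50.6% in mesenchymal-like barcodes.

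The nuclear genes whose level over the 48 class and library sums was most like that of the summed members, among 9649 genes, were 1810037I17Rik (Pearson r = 0.974), Nedd8 (0.974), Mrpl52 (0.963), Hdac3 (0.962) and Chchd2 (0.960). Mrpl52 codes for a protein of the mitochondrial ribosome and Nedd8 for a ubiquitin-like protein. Chchd2 had 1425 CPM in Sertoli-like, 925 in spermatogonia-like, 653 in spermatocyte-like, 230 in round-spermatid-like and 36.3 in elongating-spermatid-like barcodes. The sums share libraries and depth, so these r values describe the pattern and carry no p-value.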

How the data were processed

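The authors deposited a matrix of UMI counts for each library, without normalization and already filtered to called cells. Per the submitters' processing notes, Cell Ranger 7.1.0, CASAVA 1.8 and mm10 were used, whereas the file headers name software version 3.1.0. Near-identical copies, overlapping genes and antisense genes may share counts, and the sources used here do not say whether strand was used. The members and gene lists were chosen with earlier results of these data known, and the cluster naming rule and the clusters named in the text after values were seen. Members were named in full. The other named genes were Tfam, Polrmt, Lrpprc, any list gene past the threshold, and the 5 nuclear genes most like the members (mean of at least 10 CPM).

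Likely doublets, 3935 in all, were removed by the share of simulated pairs among 50 neighbours, at a rate that rose with the number of barcodes in a library. Of 53886 barcode sequences, 365 occurred in more than 1 library. Clusters (scanpy 1.11.5, 2000 variable genes, 30 components, 20 neighbours, Leiden resolution 1) were called X-like when at least 3 fixed markers had a log2 fold of at least 1 and were seen in 20% of barcodes. No limit was set on the mitochondrial share, since it acts on the readout. Sums of counts over the barcodes of a class in a library were tested with edgeR 4.0.16 (TMM, filterByExpr, Benjamini-Hochberg adjusted p under 0.05). limma 3.58.1 tested differences between classes with a mean-variance trend, and DESeq2 1.42.0 and limma-voom were alternatives. For shares, two-sided exact permutation tests enumerated 20 assignments of libraries or 64 sign patterns. On simulated counts with a fixed spread and changes larger than the members' edgeR folds, edgeR and limma recovered known changes before use. The simulated spread was not taken from these libraries. Power at their own spread, or at changes as small as the members', was not tested. Sequences and positions are from GENCODE M21 on GRCm38, which is mm10, and 30843 of 30905 feature rows had an entry there. Copies were sought with blastn 2.17.0. A median of 2548 to 2932 UMIs per barcode limits the precision for rare transcripts.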

Additional observations from a re-analysis of the deposited data

How the results depend on the processing

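No paired analysis was possible because the labels give no replicate numbers that tie a smoking library to a control library. The falls in the share of UMIs from the 10 genes between germ cell classes kept their direction under all settings. Leaving out a library gave log2 ratios of -0.31 to -0.21 for spermatocyte- over spermatogonia-like barcodes, -2.99 to -2.79 for round-spermatid- over spermatocyte-like and -2.74 to -2.57 for elongating- over round-spermatid-like barcodes, and -1.09 to -0.76 for large over small barcodes. With 5 libraries the sign-flip test cannot go below 0.0625. Among barcodes with at least 6000 UMIs the first step was -0.29 (p = 0.0625 by exact permutation).

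Smoking minus control, in percentage points of UMIs, changed sign as follows. The whole-library difference was 0.0706 with protamine and transition protein UMIs left out of the total, and -0.287 to 0.270 over the libraries left out. Round-spermatid-like barcodes gave 0.0785 at 6000 UMIs or more, and -0.213 to 0.0199 with a library left out. Leydig-like barcodes gave 0.184 and mesenchymal-like barcodes -0.216 with doublet scores ignored, and -0.736 to 1.15 (Leydig-like) and -0.0345 to 0.355 (macrophage-like) with a library left out. At 6000 to under 12000 UMIs the difference was -0.328 without barcodes over 20% mitochondrial UMIs. As medians over barcodes it was -0.101, -0.017 and -0.178 in the ranges from 2000, 3000 and 6000 UMIs. The cause of these changes was not tested.

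Counts of members called were 0 under most settings. With no filter on low counts edgeR called 3 higher in spermatocyte-like, 1 lower (mt-Nd2) in round-spermatid-like and 1 lower (mt-Nd2) in elongating-spermatid-like barcodes, where 3.50%, 1.58% and 1.74% of all genes were called. Without control library 3 it called 1 lower (mt-Co1) in elongating-spermatid-like barcodes, where 18.75% of all genes were called. Over the libraries left out, limma called 0 to 3 members lower for round-spermatid- over spermatocyte-like and 0 to 1 for elongating- over round-spermatid-like barcodes, the calls coming without control library 3, where 18.02% and 15.99% of all genes were called. DESeq2 and the unfiltered edgeR fit shifted the median fold of all genes in Leydig-like barcodes to 0.12 and 0.13. Depth limits the spermatid values, which rest on 6 to 10 member UMIs in a median barcode.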
